A study of Rattus norvegicus with 12 samples.

Results

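The extracellular matrix genes described here were chosen by symbol: collagens, laminins, matrix metalloproteinases (MMPs), tissue inhibitors of metalloproteinases (TIMPs), ADAMTS proteases, lysyl oxidases, fibrillins, fibulins and thrombospondins, with elastin, fibronectin, decorin, biglycan, lumican, periostin, the Sparc family and tenascin C. They numbered 97 of 17301 gene names, on 99 of 18752 transcripts. The symbol pattern also took in Col4a3bp, a ceramide transporter, and Loxhd1, a protein of inner ear hair cells, which match by name only. Of the 97 genes, 69 had a value above 0 in all 12 samples and were tested, and 28 were not.

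Adult rat ventricular myocytes (ARVMs) from hearts of male Sprague Dawley rats were plated on laminin and transduced at an m.o.i. of 50. The 6 Ad-h-NR4A2 samples received an adenovirus carrying human NR4A2, a nuclear receptor, driven by the CMV promoter, and the 6 Ad-GFP samples received a GFP adenovirus. RNA was taken after 48 h in medium containing butanedione monoxime, an inhibitor of myosin, so both groups were virus-treated cells in culture. Samples numbered 24 to 29 occur once in each group. Levels are FPKM, which scale the fragments on a transcript to its length and to the depth of the sample. The depth implied by the low values was 18800000 to 28000000 fragments in Ad-GFP and 21500000 to 27300000 in Ad-h-NR4A2.

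Cardiomyocytes are wrapped in a basement membrane of laminins and collagen IV, to which integrins and dystroglycan attach, while fibroblasts make most of the fibrillar collagen of the heart. MMPs and ADAMTS proteases cut matrix proteins, TIMPs inhibit them, and lysyl oxidases crosslink collagen and elastin. Matricellular proteins such as Sparc bind matrix and receptors rather than bearing load.

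The labels were checked first. Nr4a2, the rat gene name on which fragments of the human transgene can also be counted, ranged from 0.626 to 1.40 FPKM in Ad-GFP, with a median of 0.787, and from 445 to 592 in Ad-h-NR4A2, with a median of 533. The groups did not overlap. The 8 cardiomyocyte markers summed to 34083 FPKM on average in Ad-GFP and 28718 in Ad-h-NR4A2, led by Myl2, the ventricular myosin light chain. The sum was lower in 6 of 6 pairs (two-sided exact permutation p = 0.00649). All 8 markers had a log2 fold change below 0, beside 53.4% of all tested genes. Myh7, Pln and Ryr2 were called lower by the rule given below, beside 7.24% of all tested genes. The 11 fibroblast markers, led by Vim, summed to 19.8 FPKM in Ad-GFP, with Col1a2 listed at 0. Fewer cells of a type and less RNA per cell cannot be told apart in such bulk samples.

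A gene was called when limma gave a Benjamini-Hochberg adjusted p below 0.05 over 10950 genes and the group mean FPKM differed by a ratio of at least 1.5. By this rule 18 of the 69 tested matrix genes were called, beside 15.2% of all tested genes. In Ad-h-NR4A2, 8 were higher, beside 7.94% of all tested genes, and 10 were lower, beside 7.24%. The groups did not overlap for 11 matrix genes, beside 21.5% of all tested genes and 0.216% by chance. The median log2 fold change was -0.16 for the 69 genes and -0.02 for all tested genes. In the fit blocked by replicate number, 26 matrix genes were called, beside 16.7% of all tested genes. By the adjusted p alone, with no limit on the ratio, 22 matrix genes (31.9%) were called, beside 40.9% of all tested genes.

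**Figure D1:**
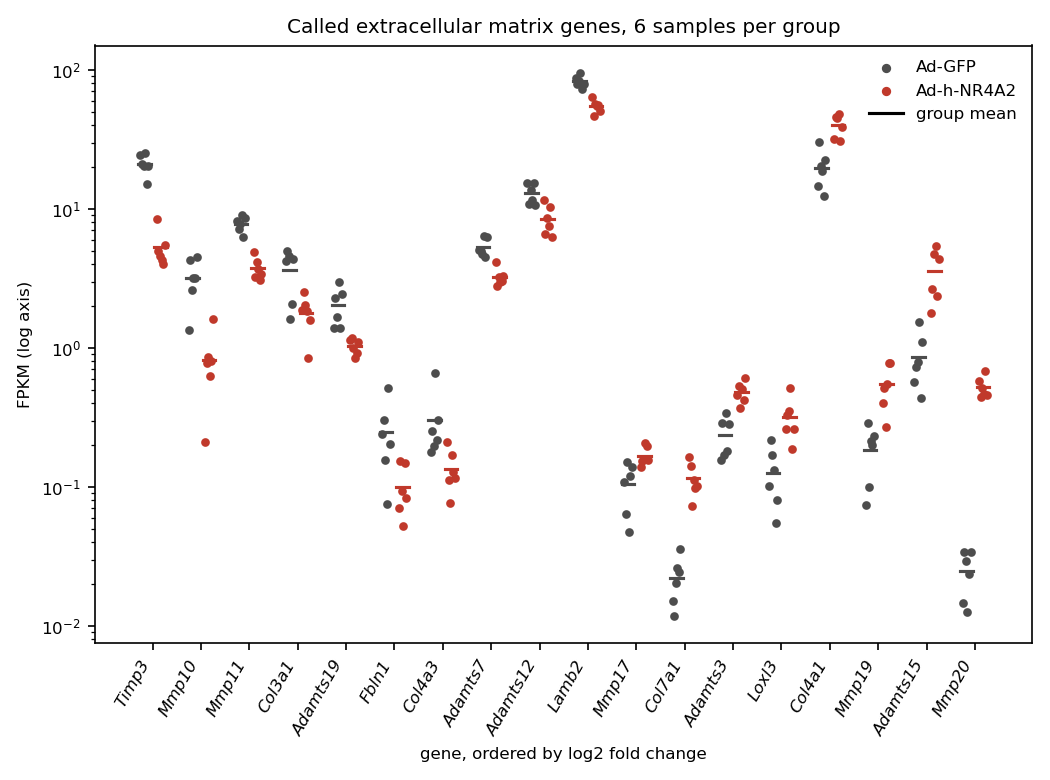
FPKM on a log axis of the 18 called matrix genes, ordered by log2 fold change, with 6 points per group (grey, Ad-GFP; red, Ad-h-NR4A2) and a bar at each group mean. Timp3 stands lowest in the order and Mmp20 highest, and neither gene's groups overlap.

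Laminins, the trimeric proteins that organise the basement membrane, were among the most abundant matrix transcripts. Lamb2, the beta chain of the laminins around mature muscle fibres, ranged from 72.7 to 95.4 FPKM in Ad-GFP, with a median of 81.2, and from 46.4 to 64.3 in Ad-h-NR4A2, with a median of 55.4. Every Ad-h-NR4A2 sample lay below every Ad-GFP sample. Lamb2 fell by 0.59 ± 0.08 (SE) on the log2 scale (limma adjusted p = 4.44e-05), in 6 of 6 pairs. Its ratio of means, 0.663, was close to the limit of the call, and the call was lost when Ad-GFP sample 24 or 27 or Ad-h-NR4A2 sample 25 or 29 was left out, although the adjusted p stayed at or below 0.000176. Lama5, an alpha chain, was not called, with a ratio of 0.690. Lamc1, the gamma chain of most laminins, had a ratio of 1.07 and an adjusted p of 0.214 in limma. The 8 laminins among the 97 genes together summed to 158 to 175 FPKM in Ad-GFP and 116 to 138 in Ad-h-NR4A2. Lama2, Lama3 and Lamb1 were not among the 97 genes, so the sum is not that of the whole family.

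Collagen IV forms the network of the basement membrane. Col4a1, its most widely expressed chain, ranged from 12.4 to 30.0 FPKM in Ad-GFP, with a median of 19.5, and from 30.7 to 48.2 in Ad-h-NR4A2, with a median of 42.0. The groups did not overlap, although Ad-GFP sample 25 came close to the lowest Ad-h-NR4A2 sample. Col4a1 rose by 1.06 ± 0.19 (SE) on the log2 scale (limma adjusted p = 0.000620), in 6 of 6 pairs. Col4a2, another collagen IV chain, was not among the 97 genes. Col4a3, a chain of specialised basement membranes, was called lower with a median of 0.235 FPKM in Ad-GFP and 0.122 in Ad-h-NR4A2, and its groups overlapped. That call was lost at a pseudocount of 1, without the filter on low values, and without Ad-h-NR4A2 sample 25, 26 or 29, with adjusted p up to 0.0611 in limma. Col7a1, the collagen of anchoring fibrils, was called higher at a very low level, from a median of 0.0223 to a median of 0.107 FPKM. Between 2 and 9 fragments per sample stood behind the Ad-GFP values and between 16 and 35 behind the others. Col18a1, the precursor of endostatin, was not called (limma adjusted p = 0.0621), and with the replicate block it was lower with an adjusted p of 0.000284.

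**Figure D2:**
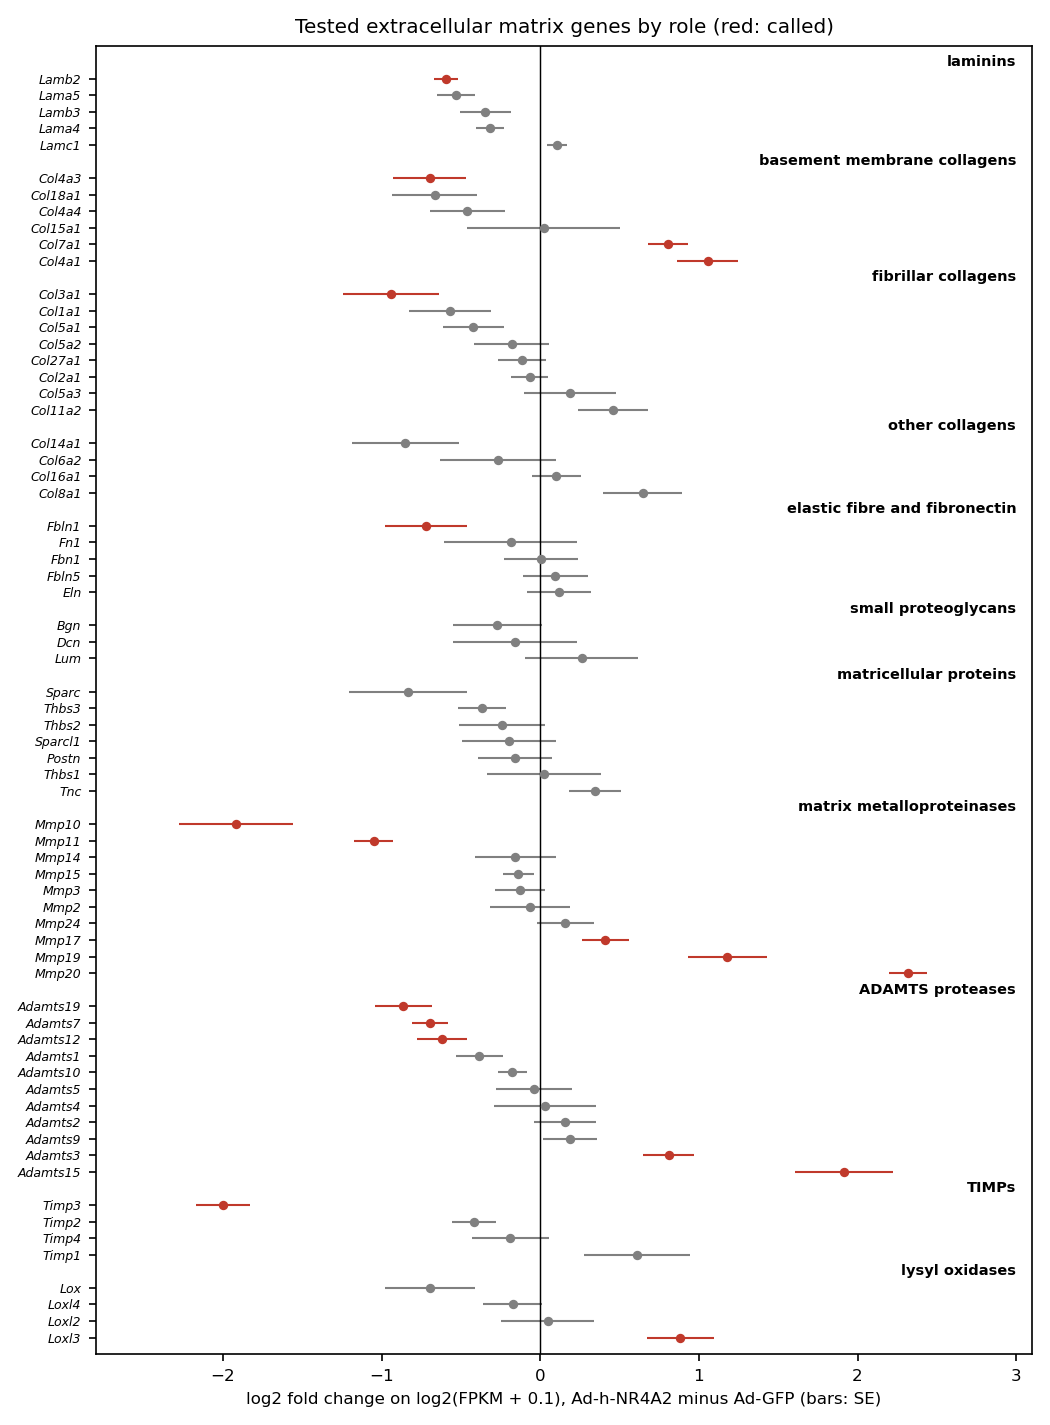
Log2 fold change, Ad-h-NR4A2 minus Ad-GFP, on the log2(FPKM + 0.1) scale for tested matrix genes, not all of them shown, grouped by role, with bars for the SE. Called genes are red, and within the MMPs, ADAMTS proteases and basement membrane collagens they lie on both sides of 0.

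Fibrillar collagens, the tensile fibres of the interstitial matrix, were low in these samples where the tables give a level. Col3a1 ranged from 1.61 to 4.97 FPKM in Ad-GFP, with a median of 4.31, and from 0.841 to 2.54 in Ad-h-NR4A2, with a median of 1.86. The groups overlapped through the lower Ad-GFP samples. Col3a1 fell by 0.94 ± 0.30 (SE) on the log2 scale (limma adjusted p = 0.0239), in 5 of 6 pairs. The call was lost without the filter on low values (adjusted p = 0.0651) and without Ad-GFP sample 25, 26 or 29, with adjusted p up to 0.0554 in limma. Col1a1, a chain of the main collagen of scar, had medians of 0.642 and 0.346 FPKM and was not called (limma adjusted p = 0.0944). It was lower in 6 of 6 pairs, and the replicate block gave it an adjusted p of 0.00616. Col1a2, the partner chain of Col1a1, was listed at 0 in all 12 samples, and its level is not known from these tables. They list its accession at 2 places in Rn5, and 65.4% of the rows of accessions listed more than once were at 0 in all samples, beside 17.2% of the other rows.

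Col11a1, a minor chain that sets the diameter of collagen fibrils, was outside the test because 4 Ad-GFP samples were listed at 0. It is singled out after its values were seen. Its FPKM did not exceed 0.0121 in Ad-GFP and ranged from 0.564 to 1.32 in Ad-h-NR4A2, with a median of 0.723. In fragments, this was 4 over all Ad-GFP samples against 847 over all Ad-h-NR4A2 samples. The ratio of fragments at equal depth was 211, with a 95% exact counting interval of 82.3 to 778 that covers counting error only. The Ad-GFP fragments were 2 in sample 24 and 2 in sample 28, so the size of the ratio depends strongly on each of these samples. A two-sided exact permutation test gave p = 0.00216, the smallest that 6 against 6 samples allow. Without the filter on low values, limma gave Col11a1 an adjusted p of 4.55e-07. Its partner Col11a2 was tested and not called (limma adjusted p = 0.115), and was higher with the replicate block (adjusted p = 0.00765).

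The replicate block added calls for other collagens too. Col8a1, a short-chain collagen of vessels, was higher with the block (adjusted p = 0.00826) and not called without it (adjusted p = 0.0547 in limma). Col14a1, a collagen that binds fibril surfaces, was lower with the block (adjusted p = 0.000595) and not called without it (adjusted p = 0.0614 in limma).

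Among the MMPs, 10 of 21 were tested, and 3 were called higher and 2 lower, beside 7.94% and 7.24% of all tested genes. Mmp20, best known as the enamel protease enamelysin, ranged from 0.0126 to 0.0343 FPKM in Ad-GFP, with a median of 0.0264, and from 0.446 to 0.682 in Ad-h-NR4A2, with a median of 0.492. Each Ad-GFP sample held 1 to 3 fragments of Mmp20 and each Ad-h-NR4A2 sample 32 to 55, with no overlap. Mmp20 rose by 2.32 ± 0.12 (SE) on the log2 scale (limma adjusted p = 1.12e-08), a value that the pseudocount holds down since the ratio of means was 21.2. Mmp10, a stromelysin that cuts a broad range of matrix proteins, ranged from 1.35 to 4.54 FPKM in Ad-GFP, with a median of 3.18, and from 0.210 to 1.61 in Ad-h-NR4A2, with a median of 0.794. Ad-GFP sample 24 was the low sample that made the groups overlap, and its same-numbered partner was the lowest of Ad-h-NR4A2. Mmp10 fell by 1.92 ± 0.36 (SE) on the log2 scale (limma adjusted p = 0.000833), in 6 of 6 pairs.

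Mmp11, known as stromelysin 3, ranged from 6.27 to 9.10 FPKM in Ad-GFP, with a median of 7.97, and from 3.08 to 4.92 in Ad-h-NR4A2, with a median of 3.57. The groups did not overlap. Mmp11 fell by 1.05 ± 0.12 (SE) on the log2 scale (limma adjusted p = 1.41e-05). Mmp19 had medians of 0.207 and 0.532 FPKM and rose by 1.18 ± 0.25 (SE) on the log2 scale (limma adjusted p = 0.00195). Mmp17, a membrane-anchored MMP, was called higher at a ratio of 1.61, with 4 to 13 fragments per Ad-GFP sample. Its call was lost at a pseudocount of 1, on the TPM scale, after quantile normalization, and without Ad-GFP sample 24, 25 or 27 or any single Ad-h-NR4A2 sample except 24, with adjusted p up to 0.0899 in limma. Mmp2, the gelatinase that fibroblasts and many other cells secrete, had a ratio of 0.983 and was not called, and neither was Mmp14, its membrane-bound activator. Mmp15, the most abundant MMP gene here, had a ratio of 0.913 (limma adjusted p = 0.289).

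Mmp10 and Mmp20 belong to a run of 9 MMP genes on chromosome 8, from 5527980 to 5903105 in the Rn5 build of the files. The 2 called genes of the run lie 91607 bases apart and changed in opposite directions. Between them, Mmp8 and Mmp27 were listed at 0 in all samples. Mmp12, at a lower coordinate than Mmp10, held 12 fragments in Ad-GFP and 1 in Ad-h-NR4A2, and Mmp7, beyond Mmp20, held 0 and 7, and both were outside the test because some samples were listed at 0. Without the filter on low values, limma called Mmp12 lower (adjusted p = 0.0153) and did not call Mmp7 (adjusted p = 0.0631). The unfiltered fit shares spread between genes of like level, among them genes at 0 in all samples. Its adjusted p for so few fragments rests partly on that sharing.

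The 250 bases before the starts of Mmp10 and Mmp20 are shown because the genes belong to 1 run and moved oppositely. RefSeq promoter windows on the GRCr8 build were found by symbol for 72 of the 97 genes, 11 of them called. The motif AAAGGTCA, the response element bound by monomers of the NR4A family, was searched on both strands. It was in none of the 72 windows, and in 1.24% of all 33469 windows of the same length. Its shorter core AGGTCA, which lies within it, was in 4 windows, those of Col4a4, Col7a1, Lama4 and Mmp10, and in 14.1% of all windows. A match is a description of these letters only, and the lack of one says nothing about binding elsewhere. Capitals mark AGGTCA or its reverse complement, which for Mmp10 starts 47 bases before the gene start. The Mmp10 window is chr8:12974457-12974706 and the Mmp20 window chr8:13074029-13074278, both on the plus strand.
Mmp10: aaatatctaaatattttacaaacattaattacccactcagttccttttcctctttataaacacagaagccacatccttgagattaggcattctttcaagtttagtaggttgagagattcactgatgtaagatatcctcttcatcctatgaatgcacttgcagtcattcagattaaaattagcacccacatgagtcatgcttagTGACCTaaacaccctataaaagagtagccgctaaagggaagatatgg
Mmp20: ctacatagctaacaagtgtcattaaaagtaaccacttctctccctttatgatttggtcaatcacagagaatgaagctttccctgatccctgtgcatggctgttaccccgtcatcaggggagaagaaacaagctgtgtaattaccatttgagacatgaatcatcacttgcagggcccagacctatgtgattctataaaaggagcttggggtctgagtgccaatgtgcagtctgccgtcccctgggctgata

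Of 13 ADAMTS genes, 11 were tested, and 2 were called higher and 3 lower, beside 7.94% and 7.24% of all tested genes. Adamts15, an enzyme that cuts the proteoglycan versican, ranged from 0.434 to 1.54 FPKM in Ad-GFP, with a median of 0.764, and from 1.78 to 5.38 in Ad-h-NR4A2, with a median of 3.51. The groups did not overlap. Adamts15 rose by 1.92 ± 0.31 (SE) on the log2 scale (limma adjusted p = 0.000248), in 6 of 6 pairs. Adamts3, a procollagen N-proteinase, had medians of 0.232 and 0.485 FPKM without overlap and rose by 0.81 ± 0.16 (SE) on the log2 scale (limma adjusted p = 0.00139). Adamts2, another procollagen N-proteinase, had a ratio of 1.13 and was not called.

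Adamts7 and Adamts12, related enzymes that cut cartilage oligomeric matrix protein, were both called lower. Adamts7 had medians of 5.01 and 3.14 FPKM, without overlap, and fell by 0.69 ± 0.11 (SE) on the log2 scale (limma adjusted p = 0.000281). Adamts12, the most abundant ADAMTS gene, had medians of 12.6 and 8.04 FPKM and fell by 0.62 ± 0.16 (SE) on the log2 scale (limma adjusted p = 0.00599). Its groups overlapped, and its ratio of 0.657 passed the limit so narrowly that the call was lost without Ad-GFP sample 24 or 28 or Ad-h-NR4A2 sample 25, 27 or 29, where the ratio reached 0.691. Adamts19 had medians of 1.99 and 1.05 FPKM, without overlap, and fell by 0.86 ± 0.18 (SE) on the log2 scale (limma adjusted p = 0.00169).

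The TIMPs did not move together. Timp3, the inhibitor that stays bound to the matrix and also blocks ADAM and ADAMTS proteases, ranged from 15.1 to 25.2 FPKM in Ad-GFP, with a median of 20.8, and from 4.03 to 8.40 in Ad-h-NR4A2, with a median of 4.78. The groups were far apart, and even the highest Ad-h-NR4A2 sample, number 24, lay below the lowest Ad-GFP sample. Timp3 fell by 2.00 ± 0.17 (SE) on the log2 scale (limma adjusted p = 8.06e-07), in 6 of 6 pairs. Timp2, a soluble inhibitor, had an adjusted p of 0.0287 in limma but a ratio of 0.749, and was not called. Timp1 ranged from 12.7 to 35.3 FPKM in Ad-GFP, with a median of 16.1, and from 15.5 to 55.1 in Ad-h-NR4A2, with a median of 28.4. Its groups overlapped broadly and it was not called (limma adjusted p = 0.161), but it was higher in 6 of 6 pairs and was called with the replicate block (adjusted p = 0.000547).

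Loxl3, a lysyl oxidase of collagen and fibronectin matrices, was called higher, with medians of 0.117 and 0.294 FPKM and a log2 fold change of 0.88 ± 0.21 (SE, limma adjusted p = 0.00415). Only 4 to 11 fragments per sample stood behind its Ad-GFP values. Lox, the main crosslinking enzyme of the family, was not called, with 2 to 13 fragments in each Ad-GFP library and at most 6 in any Ad-h-NR4A2 library (limma adjusted p = 0.0656), and the replicate block gave an adjusted p of 0.0447. Loxl4, the most abundant lysyl oxidase gene, had a ratio of 0.920. Loxl1, which crosslinks elastin, was left out of the test by a single sample at 0, and held 177 fragments in Ad-GFP and 67 in Ad-h-NR4A2. Without the filter on low values, Loxl1 was not called (limma adjusted p = 0.0632).

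Sparc, a collagen-binding matricellular protein, had the highest mean of the matrix genes, with 33.0% of the summed mean FPKM of the 95 genes left after the name-only matches in Ad-GFP and 22.7% in Ad-h-NR4A2. In both samples numbered 24, Lamb2 was higher than Sparc. It ranged from 62.5 to 293 FPKM in Ad-GFP, with a median of 147, and from 44.1 to 131 in Ad-h-NR4A2, with a median of 89.7. Ad-GFP samples 27 and 29 were high and sample 24 low, and in Ad-h-NR4A2 the same numbers 27 and 29 were highest and 24 lowest. The groups overlapped and Sparc was not called (limma adjusted p = 0.0889). It was lower in 6 of 6 pairs, and with the replicate block the log2 fold change of -0.83 had an adjusted p of 0.000126.

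**Figure D3:**
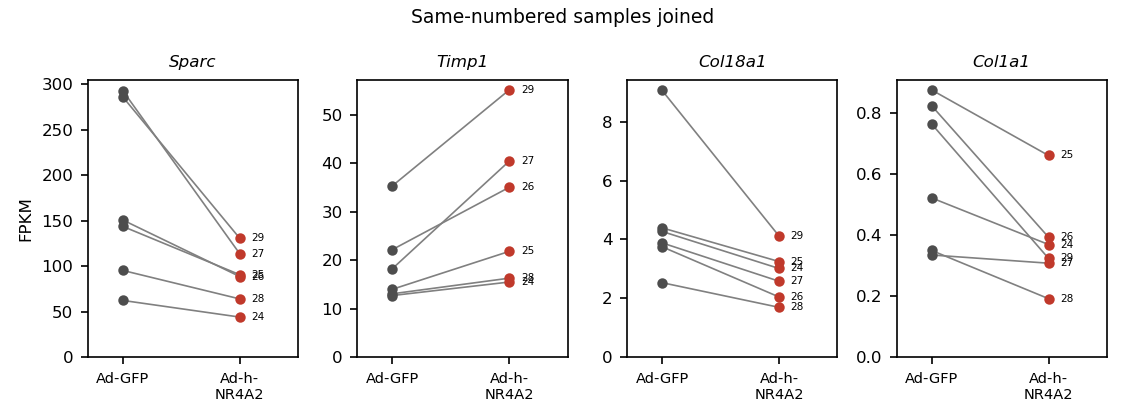
FPKM of Sparc, Timp1, Col18a1 and Col1a1 in same-numbered samples joined by lines, with the sample number beside each Ad-h-NR4A2 point. Each of these genes moved the same way in 6 of 6 pairs while the groups overlapped.

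Fbln1, a fibulin of elastic fibres and basement membranes, was called lower, with medians of 0.223 and 0.0885 FPKM (limma adjusted p = 0.0378). Its call was lost at a pseudocount of 1, without the filter on low values, and without Ad-GFP sample 24, 25, 28 or 29 or Ad-h-NR4A2 sample 24, 26, 27 or 29, with adjusted p up to 0.0806 in limma. Fn1, fibronectin, varied more between Ad-GFP samples than other matrix genes with a mean of at least 1 FPKM over the 12 samples, from 0.792 to 4.59 FPKM, and had a ratio of 0.793. Bgn and Dcn, small proteoglycans that bind collagen, had ratios of 0.811 and 0.989 and were not called. Postn, a matricellular protein of activated fibroblasts, had a mean of 0.104 FPKM in Ad-GFP and 0.0800 in Ad-h-NR4A2. Among Ad-GFP samples, the coefficient of variation of the 33 genes with such a mean ranged from 6.85% for Adamts10 to 75.3% for Fn1, with a median of 29.2%.

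Of the 28 untested genes, 4 were listed at 0 in all samples, namely Col1a2, Mmp8, Mmp27 and Mmp28. Mmp28, like Col1a2, is listed at 2 places in Rn5, so its 0 does not show its level either. Another 17 had at most 20 fragments over all 12 samples. Mmp9, the gelatinase of inflammatory cells, held 21 fragments in Ad-GFP and 23 in Ad-h-NR4A2. Its ratio at equal depth was 1.09, with a 95% exact counting interval of 0.579 to 2.08. A difference of Mmp9 was not detectable at this depth. Apart from Col11a1, Loxl1, Mmp7 and Mmp12, the interval left out 1 only for Fbn2 and Lamc3. Fbn2 held 24 and 8 fragments, a ratio of 0.333 (0.129 to 0.766). Lamc3 held 2 and 12, a ratio of 5.99 (1.33 to 55.1). These intervals were not adjusted for the number of genes.

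Genes that bind, process or accompany these matrix genes were read from further lists. Of 22 tested matrix receptors, 4 were called higher and 3 lower, beside 7.94% and 7.24% of all tested genes. Itgb8, an integrin chain that activates TGF-beta, had medians of 8.31 and 17.9 FPKM and rose by 1.02 ± 0.28 (SE) on the log2 scale (limma adjusted p = 0.00931). Sdc2, a syndecan, had medians of 25.3 and 44.6 FPKM, without overlap. Itga5, the alpha chain of the fibronectin receptor, had medians of 13.8 and 7.12 FPKM and fell by 0.91 ± 0.07 (SE) on the log2 scale (limma adjusted p = 5.79e-07). Itga7, the laminin-binding integrin chain of muscle, and Itgb1, its partner, were the most abundant receptors, and their ratios of 1.31 and 0.914 did not pass the limit. Itgb4, an integrin chain of hemidesmosomes, was called lower (limma adjusted p = 0.0368), and its call was lost without the filter on low values and without Ad-GFP sample 24, 25, 26 or 29 or Ad-h-NR4A2 sample 24, 26, 27 or 29, with adjusted p up to 0.0726.

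Of 14 tested collagen processing genes, 2 were called higher and 3 lower, beside 7.94% and 7.24% of all tested genes. Tll1, a protease that removes procollagen C-propeptides, had medians of 1.24 and 6.02 FPKM, without overlap, and rose by 2.22 ± 0.18 (SE) on the log2 scale (limma adjusted p = 6.24e-07). Serpinh1, the collagen chaperone Hsp47, had medians of 285 and 171 FPKM, without overlap, and fell by 0.74 ± 0.09 (SE) on the log2 scale (limma adjusted p = 3.48e-05). P4ha2, a prolyl hydroxylase subunit, and Plod1, a lysyl hydroxylase, were also lower, at ratios of 0.573 and 0.664. The call of Plod1 was lost after quantile normalization and without Ad-GFP sample 24, 26 or 28 or Ad-h-NR4A2 sample 25, 27 or 29, where the log2 fold change of Plod1 came as near 0 as -0.53 and the adjusted p stayed at or below 0.00250 in limma. P4ha3, another prolyl hydroxylase subunit, was called higher on 1 to 6 fragments per Ad-GFP sample (limma adjusted p = 0.0420). Its call was lost at a pseudocount of 1, without the filter on low values, and without any 1 of Ad-GFP samples 24 to 28 or of Ad-h-NR4A2 samples 24 to 26, with adjusted p up to 0.0912.

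Of 21 other matrix proteins tested, 4 were called higher and 3 lower, beside 7.94% and 7.24% of all tested genes. Spp1, osteopontin, ranged from 3.32 to 13.7 FPKM in Ad-GFP, with a median of 6.32, and from 283 to 1143 in Ad-h-NR4A2, with a median of 615. The groups were far apart, and the log2 fold change was 6.50 ± 0.33 (SE, limma adjusted p = 9.21e-09). Cyr61, a matricellular CCN protein, had medians of 8.22 and 139 FPKM and rose by 3.95 ± 0.11 (SE) on the log2 scale (limma adjusted p = 3.35e-11). Nid2, a nidogen that links laminin to collagen IV, had medians of 1.64 and 8.21 FPKM, without overlap. Emilin1, a glycoprotein of elastic fibres, had medians of 70.1 and 21.7 FPKM, without overlap, and fell by 1.54 ± 0.17 (SE) on the log2 scale (limma adjusted p = 9.87e-06).

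Of 17 other proteases and inhibitors tested, 2 were called higher and 5 lower, beside 7.94% and 7.24% of all tested genes. Adam19, a membrane sheddase, had medians of 17.5 and 4.08 FPKM, without overlap, and fell by 1.96 ± 0.16 (SE) on the log2 scale (limma adjusted p = 6.24e-07). Serpine2, an inhibitor of serine proteases, had medians of 2.36 and 6.14 FPKM, without overlap, and rose by 1.41 ± 0.14 (SE) on the log2 scale (limma adjusted p = 3.20e-06). Bsg, basigin, was the most abundant gene of the list at a mean of 917 FPKM in Ad-GFP, with a ratio of 1.01. Reck, a membrane inhibitor of MMPs, was called higher at an adjusted p of 0.0492 in limma. That call was lost under most other settings and without Ad-GFP sample 25, 26, 27, 28 or 29 or Ad-h-NR4A2 sample 25, 26, 27 or 29, with adjusted p up to 0.110.

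Markers of other cells were set beside these values. The permutation tests of the sums take no account of the pairs. The summed fibroblast markers averaged 19.8 FPKM in Ad-GFP and 16.0 in Ad-h-NR4A2, lower in 5 of 6 pairs (two-sided exact permutation p = 0.372). Without the markers that are matrix genes described here, the sums averaged 14.0 and 12.3 FPKM (two-sided exact permutation p = 0.591). Of the 10 tested, Col3a1 alone was called, beside 15.2% of all tested genes. The replicate block added Col1a1, in a fit that called 16.7% of all tested genes. Vim, the most abundant, had a ratio of 0.873 and Pdgfra a ratio of 0.673. Lum and Thy1 had ratios of 1.53 and 1.31 and were not called. The part of fibroblast RNA in the values of Col3a1, Col1a1 and Sparc was not tested. The summed endothelial markers had a ratio of 1.00 between groups, lower in 3 of 6 pairs. None of these 8 was called by limma, beside 15.2% of all tested genes. The macrophage and leukocyte list summed to a mean of 12.5 FPKM in Ad-GFP and 43.5 in Ad-h-NR4A2, higher in 6 of 6 pairs (two-sided exact permutation p = 0.00216). Of its 4 tested genes, 2 were called, both higher, beside 7.94% of all tested genes. They were Csf1r, with medians of 9.65 and 39.9 FPKM, and Cd14, with medians of 0.178 and 1.11 FPKM. Csf1r made up most of the sum, at means of 10.1 and 40.2 FPKM. Lyz2, not called, ranged from 0.641 to 3.06 FPKM in Ad-GFP and from 0.151 to 4.72 in Ad-h-NR4A2. Ptprc, the pan-leukocyte marker, did not exceed 0.0489 FPKM in any sample, and Cd68 had a ratio of 1.04. The smooth muscle and pericyte sum had a ratio of 0.817 and was lower in 6 of 6 pairs (two-sided exact permutation p = 0.188). Of the 6 tested genes of this list, 2 were called lower, beside 7.24% of all tested genes. The mesothelial list had 1 of 2 called higher, beside 7.94% of all tested genes. Its sum went the other way, with a ratio of 0.881, and was lower in 4 of 6 pairs (two-sided exact permutation p = 0.879). None of the Schwann cell or adipocyte markers tested was called, beside 15.2% of all tested genes. The part of these cells in the matrix values was not tested.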

How the data were processed

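Stranded mRNA libraries were sequenced as paired ends, aligned with STAR to Rn5 and quantified with Cufflinks. The submitters' processing notes list no versions, and the paper gives one for its Cufflinks workflow only. The FPKM values deposited by the authors were used for 12 samples. The highest-mean transcript stood for a gene name. Log2(FPKM + 0.1) was fitted with limma 3.58.1 (trend, two-sided) in R 4.3.3 without a block, for 10950 genes above 0 in all samples, with Benjamini-Hochberg adjustment. Fold changes are on this log2 scale, which understates the change of low genes. Medians, fragments and plots were made in Python 3.11.15, with Matplotlib 3.10.9 for the plots, SciPy 1.17.1 for exact tests, and pandas 2.3.3 over NumPy 2.4.6 for the tables.

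Nearly all low FPKM values were whole multiples of the value of 1 fragment, within 0.05, which gave the depths and fragment numbers. Intervals cover counting error only. The labels do not say what the sample number stands for. Same-numbered deviations from the group means correlated at 0.347 to 0.623 in 6 of 6 pairs, so the numbers were taken to pair the samples. The fit was tested on simulated data.

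Named were every called gene, the 2 most abundant of each role, fibroblast markers among the members, and, of each further list, the called genes with the 3 largest rises and falls and the 2 most abundant; not all of these are described. The members and lists were chosen with earlier results of these data known. Alternatives changed the pseudocount, filter, scale, trend, block, ratio limit, transcript handling or 1 sample. Of the list genes, 23 without a value in the tables were not analysed here.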

Additional observations from a re-analysis of the deposited data

Results flagged for a closer look

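In 8 of 130 groups of 6 samples, for the named genes, the highest sample stood far from the others relative to the range of its group; chance gives about 1 in 20 groups. In Ad-GFP, sample 27 had 0.658 FPKM of Col4a3 against a group median of 0.235. Sample 29 of Ad-GFP stood out for Col18a1 with 9.07 FPKM (median 4.08), for Lamc1 with 43.0 FPKM (median 36.1) and for Cyr61 with 11.7 FPKM (median 8.22). Sample 25 of Ad-GFP stood out for Col6a2 with 4.34 FPKM (median 1.62) and for Loxl2 with 1.27 FPKM (median 0.635). In Ad-h-NR4A2, sample 24 had 8.40 FPKM of Timp3 against a median of 4.78, and 12.9 FPKM of Adam10 against a median of 11.1. The call of Timp3 held whichever sample was left out, and Lamc1, Col18a1, Col6a2 and Loxl2 were not called.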

How the results depend on the processing

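The count of called matrix genes, 18, stayed between 15 and 20 when single samples were left out, with 7 to 9 higher and 8 to 13 lower, while all called genes numbered 1541 to 1769. It was 16 at a pseudocount of 1, 17 without the filter or on the TPM scale, 21 after quantile normalization and 26 with the replicate block, where 11 were higher and 15 lower. Requiring a mean of at least 1 FPKM left 10 called, 2 of them higher, as fewer genes were tested. A ratio of at least 2 left 803 called genes in all and 13 matrix genes, 7 higher and 6 lower, with 2 receptors, 2 collagen processing genes and 3 proteases and inhibitors; no ratio limit gave 4484 in all, 22 matrix genes, 8 higher and 14 lower, and 12 receptors. The share of tested matrix genes called was above that of all tested genes in every setting except without a ratio limit, where it was 31.9% beside 40.9%. Collagen processing calls numbered 3 to 5 with single samples left out, the lower value without Ad-GFP sample 24, 26 or 28 or Ad-h-NR4A2 sample 25. No named gene that was called changed direction in any alternative, and 12 of the 18 called matrix genes were called in every alternative that tested them, apart from the changed ratio limits. Apart from the genes named with it, the paired fit ended only the call of Reck (adjusted p = 0.0492 without the block and 0.0597 with it in limma), and added calls of Ctgf, a CCN protein (0.0622 and 5.10e-05), and Plau, urokinase (0.0572 and 0.00758). Depth limits, among others, Mmp3, Mmp7, Mmp12, Mmp17, Mmp19, Mmp20, Col7a1, Loxl3, Lox, Fbln1 and P4ha3.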
